A study of Mus musculus with 5 samples.

Results

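Aire and 8 genes whose proteins are reported to work with it in transcription, Top1, Top2a, Top2b, Prkdc, Parp1, Sirt1, Cdk9 and Hipk2, were examined for H3K36me3 in mTEClo of the mouse thymus. The 9 genes are a list by name, set by no peak value though with earlier results of these data known, out of 21887 protein-coding genes. All 9 were matched by symbol to a gene span in a RefSeq table of GRCm38.p6, the assembly behind the mm10 coordinates of the peaks. mTEClo are medullary thymic epithelial cells sorted as EpCAM+ UEA-1+ Ly51lo CD80lo, here from individual wild-type B6 mice of unstated age and sex. The 5 samples were 2 libraries immunoprecipitated with an antibody to H3K36me3 (Abcam, ab9050), here series 1 and series 2, and 3 inputs without antibody. For each ChIP library the authors deposited a separate list of broad peaks. No treatment, mutant or other cell type was included. The labels do not say which mouse gave which library, so values that differ between the series may reflect technique alone.

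Aire is a transcriptional regulator through which medullary epithelial cells express tissue-restricted antigens and so show them to developing T cells. It is known mainly from the mature cells with high CD80, of which mTEClo are in part precursors. Aire acts on RNA polymerase II that is paused near promoters. DNA topoisomerases and DNA-dependent protein kinase are reported to join it at DNA breaks, and P-TEFb, the kinase that releases paused polymerase, is reported to be recruited by it. H3K36me3 is a trimethylated lysine of histone H3 that SETD2, travelling with elongating polymerase, leaves along the bodies of transcribed genes, mostly away from the start site.

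The series 1 list held 7231 peaks with a median width of 483 bp, and the series 2 list 10243 peaks with a median width of 222 bp. Without read counts the depth behind a peak cannot be given, and the absence of a peak in a gene means only that none was called there. With 1 ChIP library per series, no difference between the series has a replicate test. Of 7 medullary epithelial marker genes, Krt5 had a peak in both series and Relb in series 2, while Epcam, Krt14, Krt8, Cd40 and Ccl21a had none. None of 5 thymocyte, 3 B cell or 2 fibroblast markers had a peak in either series, and of 4 cortical epithelial markers 1, Ly75, had a peak in both. Of 3 genes of mature medullary cells, Aire and Fezf2 had no peak, and Cd80, by whose protein the cells were sorted as low, had a peak in series 2. Over all protein-coding genes, 27.4% had a peak in either series, and these few markers were not used to judge cell identity or purity.

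The 250 bases before the annotated start site, from RefSeq on GRCm38.p6, are shown for Aire and the 3 topoisomerase genes, because the positions of peaks below are measured from these starts. They are written 5′ to 3′ on the strand of each gene, and capitals mark 3 motifs on either strand: CCAAT with its reverse complement ATTGG, the TATA box form TATAAA with its reverse complement TTTATA, and the GC box core GGGCGG with its reverse complement CCGCCC. None of the marked matches overlap each other. The Aire window is chr10:78043611-78043860, minus strand, and also lies inside the span of its neighbour Dnmt3l. The Top1 window is chr2:160645647-160645896, plus strand, the Top2a window chr11:99024190-99024439, minus strand, and the Top2b window chr14:16364956-16365205, plus strand.
Aire: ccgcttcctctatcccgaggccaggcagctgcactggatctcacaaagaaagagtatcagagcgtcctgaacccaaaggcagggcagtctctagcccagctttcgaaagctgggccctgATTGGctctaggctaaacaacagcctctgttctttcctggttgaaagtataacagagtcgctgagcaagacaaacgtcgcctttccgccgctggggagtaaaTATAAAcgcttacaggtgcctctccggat
Top1: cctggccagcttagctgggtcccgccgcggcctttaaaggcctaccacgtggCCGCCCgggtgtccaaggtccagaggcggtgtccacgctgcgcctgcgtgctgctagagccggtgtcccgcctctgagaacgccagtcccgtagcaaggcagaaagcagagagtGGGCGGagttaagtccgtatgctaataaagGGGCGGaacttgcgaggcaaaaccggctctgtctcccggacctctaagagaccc
Top2a: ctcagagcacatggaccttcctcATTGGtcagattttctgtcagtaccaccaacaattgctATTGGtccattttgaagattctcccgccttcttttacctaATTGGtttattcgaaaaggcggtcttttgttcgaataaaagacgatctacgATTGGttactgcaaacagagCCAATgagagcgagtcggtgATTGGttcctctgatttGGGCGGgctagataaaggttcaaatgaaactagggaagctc
Top2b: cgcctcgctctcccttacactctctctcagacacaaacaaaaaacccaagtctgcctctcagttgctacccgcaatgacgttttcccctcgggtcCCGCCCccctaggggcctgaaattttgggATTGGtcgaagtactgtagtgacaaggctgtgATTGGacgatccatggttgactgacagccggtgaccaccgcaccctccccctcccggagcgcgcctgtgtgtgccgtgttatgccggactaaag

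None of these windows touched a peak in either series, and neither did those of Parp1, Sirt1 and Cdk9 or the 2 windows of Hipk2. The windows are short, and the peaks total 4.43 Mb in series 1 and 3.38 Mb in series 2. How many windows of all genes touch a peak was not counted, so this is not read as a trait of these genes. The start windows of Top2a and Top2b, which encode the paralogous enzymes that pass DNA through a double-strand break, held 6 and 2 matches to CCAAT. Of 21263 windows of protein-coding genes, 35.4% held at least 1 match, 11.4% at least 2 and 0.0658% at least 6. Aire had 1 match to TATAAA, ending 24 bases before the start, against 11.6% of all windows with any, and Top1 had 3 to GGGCGG, a number reached by 11.6% of windows. A match is a description of these letters and not a binding site.

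At least 1 bp of a peak was found in 5 of the 9 genes, counting either series. Prkdc and Top1 had peaks in both, Hipk2 in series 1 only, and Top2a and Top2b in series 2 only. Aire, Parp1, Sirt1 and Cdk9 had no peak in either series. By library, 3 of 9 genes were hit in series 1, where 16.3% of all protein-coding genes were, and 4 in series 2, where 19.5% were. The count in both series was 2 of 9, beside 8.42% of all genes, and in either series 5 of 9, beside 27.4%. These shares are over genes of any length. The 9 genes held 6 of the series 1 peaks and 8 of the series 2 peaks, and no peak in them lay over any other annotated gene. The table of genes gives no exons, so the peaks were not assigned to exons or introns.

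**Figure D1:**
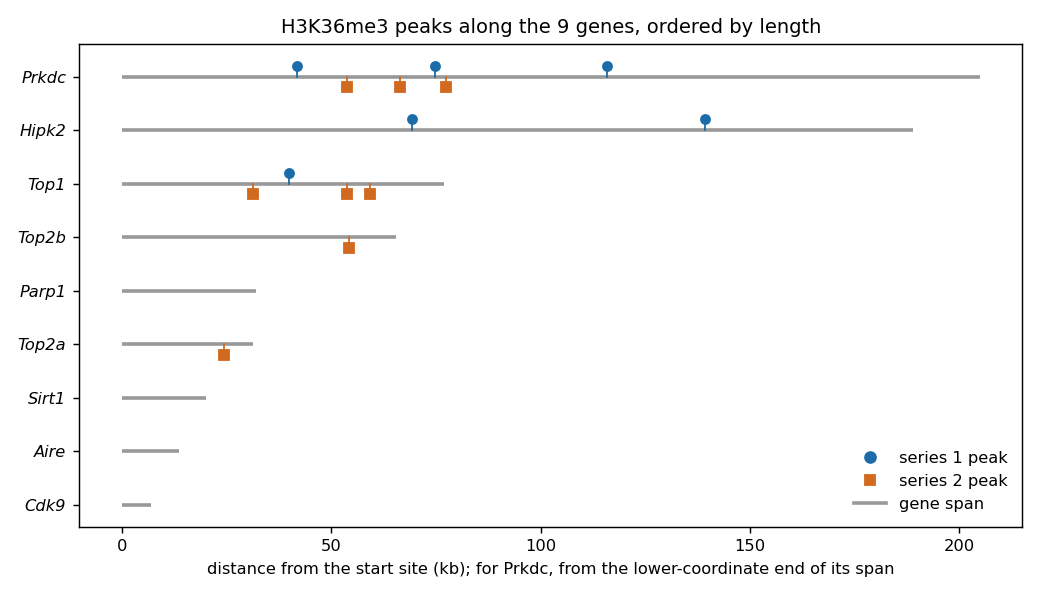
Each grey line is the span of 1 gene, drawn to scale in kb from its start site (for Hipk2 the outer one), or for Prkdc from the lower-coordinate end. Blue circles above are midpoints of series 1 peaks and orange squares below those of series 2. Prkdc and Top1 carried peaks of both series at different places, and 4 of the 5 shortest genes carried none.

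The genes with peaks were mostly the long ones, and the background depends on length in the same way. In 10 classes of equal number by length, the share of protein-coding genes with a peak in either series went from 0.228% in the shortest to 75.8% in the longest. Prkdc (204.8 kb) and Hipk2 (188.8 kb) were in the longest class. Top1 (76.9 kb) and Top2b (65.6 kb) were in the next, where 54.6% of genes had a peak. Top2a (31.3 kb) and Parp1 (32.1 kb) shared a class in which 34.7% had one, and only Top2a of the pair had one. Sirt1 (20.03 kb) lay in a class at 27.2% and Cdk9 (7.003 kb) in one at 5.62%. In the class of Aire (13.6 kb), 415 of 2189 genes had a peak. Among genes of the length of Aire, 81.0% therefore had no peak in either list, and among those of the length of Cdk9 94.4%. Prkdc and Top1 were hit in both series, as were 34.3% and 19.6% of the genes of their classes, beside 8.42% of all genes.

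**Figure D2:**
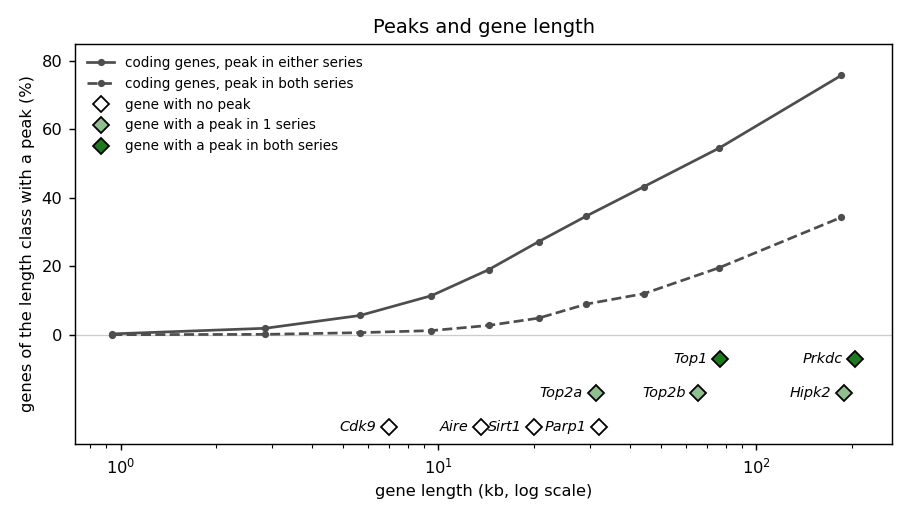
The lines give the percentage of protein-coding genes with a peak against the median length of each of 10 length classes (log scale), in either series (solid) and in both (dashed); diamonds below 0 mark the 9 genes at their length, dark green for a peak in both series, pale green in 1 and white in none. The 4 longest of the 9 all had a peak, and of the 5 shorter ones only Top2a did.

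The 9 spans add up to 640.1 kb. Peaks covered 0.538% of that length in series 1 and 0.348% in series 2, beside 0.315% and 0.224% over the spans of all protein-coding genes. The median covered share of the 9 genes was 0% in both series, as it was over all genes. No gene of the 9 reached 2% in either library. Covered shares of hit genes depend on length. Their median in the longest class was 0.308% in series 1 and 0.173% in series 2. In the class of Top1 and Top2b it was 0.988% and 0.397%, and in that of Top2a 2.31% and 0.903%. Prkdc in both series, Hipk2 in series 1 and Top1 in series 2 lay above these medians. Top1 in series 1 and Top2a and Top2b in series 2 lay below them.

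**Figure D3:**
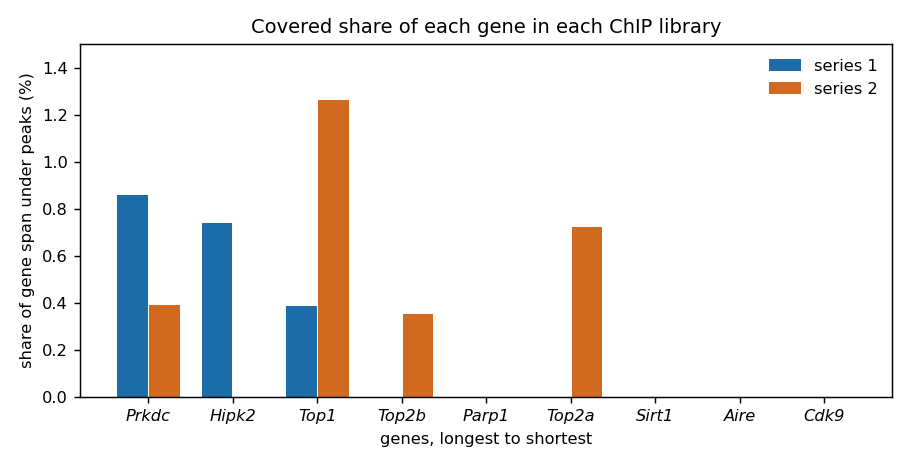
Bars give the percentage of each gene's span under peaks in series 1 (blue) and series 2 (orange), with genes from longest to shortest and 1 library per bar. Top1 reached 1.26% in series 2 and Prkdc 0.857% in series 1, and the 4 genes with no bar had no peak in either list.

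Aire itself lies on chromosome 10 from 78030022 to 78043610 and had 0 peaks and a covered share of 0% in each series. The nearest series 1 peak lay 303.7 kb upstream in Agpat3, and the nearest series 2 peak 166.5 kb upstream in Trappc10. Both distances were longer than the median for genes without a peak, 115.7 kb in series 1 (interquartile range 44.1 to 273.9 kb) and 82.0 kb in series 2 (31.8 to 191.6 kb). In series 1, 22.6% of the genes without a peak lay still farther from one, and in series 2 28.9%. Part of Aire overlaps Dnmt3l, which encodes a cofactor of DNA methyltransferases. With no peak in Aire, none could fall in that overlap.

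Of the topoisomerases, Top1 was hit in both series. Its product nicks a single DNA strand to relax supercoils ahead of polymerase. Top1 lies on chromosome 2 from 160645897 to 160722764. Series 1 placed 1 peak in it, 296 bp wide at chr2:160685556-160685851, with a score of 15, and series 2 placed 3, with scores of 28, 12 and 13. The score is the authors' own value per peak, runs from 10 in both lists and was compared only within a list. The covered share was 0.385% in series 1 and 1.26% in series 2, 0.823% ± 0.619 (SD, n = 2). With peaks wider than 250 bp alone, the series 2 share was 0.690%, and with scores of at least 20 it was 0.286% and that of series 1 was 0%. Having 3 or more peaks put Top1 among 4.11% of genes of its length class in series 2, while its single peak in series 1 was shared by 33.3% of them. The 4 peaks lay between 31.4 and 59.3 kb from the start, or 40.8 to 77.1% of the way along the gene. No series 1 peak overlapped a series 2 peak in it, and the smallest gap between them was 8.16 kb.

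Top2a and Top2b each had 1 peak, in series 2, and none in series 1. TOP2A is the form of dividing cells and TOP2B that of most cells, including those that no longer divide. The Top2a peak, chr11:98999592-98999817, was 226 bp wide with a score of 18 and covered 0.723% of the gene. The Top2b peak, chr14:16419239-16419468, was 230 bp wide with a score of 17 and covered 0.351%. The widths lay between the narrowest peak of that list, 216 bp, and 250 bp, and were above its median of 222 bp. Both scores were near its median of 16. They lay far along their genes, at 78.4% of the length of Top2a and 82.6% of that of Top2b. The nearest series 1 peaks were outside the genes, 163.6 kb downstream of Top2a in Casc3 and 74.0 kb upstream of Top2b in Ngly1.

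Prkdc encodes the catalytic subunit of DNA-dependent protein kinase, which takes part in the joining of broken DNA ends and phosphorylates histone H2AX. It was the only gene of the 9 with several peaks in both series. Prkdc lies on chromosome 16 from 15637444 to 15842239. Its 3 series 1 peaks were 452, 378 and 926 bp wide with scores of 21, 16 and 28, and its 3 series 2 peaks were 335, 227 and 240 bp wide with scores of 12, 17 and 31. In each list its best peak scored above most of the list, above 72.3% of the peaks of series 1 and 88.9% of those of series 2. The covered share was 0.857% in series 1 and 0.392% in series 2, 0.625% ± 0.329 (SD, n = 2). The series 2 share was 0.117% with scores of at least 20 and 0.164% with peaks wider than 250 bp. At least 3 peaks in each series were found in 4.52% of the 2189 genes of the longest class, or 99 genes.

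The 6 Prkdc peaks were gathered between 41.8 and 115.9 kb from the lower-coordinate end of the span, with none in the remaining 88.9 kb. The closest pair across the series, chr16:15712039-15712416 in series 1 and chr16:15714686-15714925 in series 2, was 2.27 kb apart and did not overlap. Among the 1843 protein-coding genes with a peak in both series, the peaks of the series touched in 17.6%, and the median smallest gap was 7.36 kb. In the length class of Prkdc that median was 23.4 kb (interquartile range 5.93 to 60.9 kb), and in the class of Top1 it was 7.57 kb (1.39 to 20.4 kb).

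Hipk2, a nuclear kinase of the homeodomain-interacting family that is reported to phosphorylate Aire, held 2 peaks, both from series 1. It lies on chromosome 6 from 38687512 to 38876331. The peak nearer the start, chr6:38806275-38807370, was 1096 bp wide, the widest in any of the 9 genes and wider than 90.3% of its list, with a score of 16. The other, chr6:38736820-38737117, was 298 bp wide with a score of 17. The 2 peaks lay 69.4 and 139.2 kb from the outer of its 2 annotated starts and together covered 0.738% of the gene. The window of the inner start was 29.9 kb from the nearer peak. The nearest series 2 peak was 85.8 kb downstream of the gene, in Luc7l2. In the longest class, 20.5% of genes had at least 2 peaks in series 1, and 61.4% had at least 1 in series 2.

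Parp1, Sirt1 and Cdk9 had no peak in either list. PARP1 makes poly(ADP-ribose) at DNA breaks, SIRT1 is an NAD-dependent deacetylase reported to deacetylate Aire, and CDK9 is the kinase of P-TEFb. Parp1 lies on chromosome 1 from 180568891 to 180600999, with the nearest peaks 143.3 kb downstream in Acbd3 in series 1 and 51.5 kb downstream in Lin9 in series 2. Sirt1, on chromosome 10 from 63319005 to 63339035, had the closest peak among those of the 9 genes without a peak in a series, 7.30 kb downstream in Herc4 in series 1, while its nearest series 2 peak was 253.2 kb away. Cdk9, on chromosome 2 from 32705782 to 32712784, had its nearest peaks at 455.3 kb in series 1 and 37.9 kb in series 2. These distances lie on both sides of the medians given above for genes without a peak.

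Along the 4 hit genes with an annotated start, the peaks stayed away from the start site. The 8 peaks of Top1, Top2a, Top2b and Hipk2 lay 24.5 kb or more downstream of it, at 36.8 to 82.6% of the gene's length. For Hipk2 this was measured from the outer of its 2 annotated starts. Over all protein-coding genes at least as long as Top2a, the median position was 59.0% of the length for 3142 peaks of series 1 (interquartile range 32.8 to 80.1%) and 56.3% for 4079 peaks of series 2 (30.8 to 78.7%). In these genes 14.8% of series 1 peaks and 16.2% of series 2 peaks fell in the 20% of the length nearest the start.

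Peak scores in the 9 genes lay far under the top of each list. The 6 series 1 peaks scored 15 to 28 and the 8 series 2 peaks 12 to 31, beside list medians of 21 and 16 and highest scores of 378 and 483. When scores below 20 were left out, Prkdc was the only one of the 9 hit in both series, where 3.3% of all genes were. In series 2 Prkdc and Top1 were then hit, where 9.01% of all genes were, and Top1 had no peak left in series 1. Hipk2, Top2a and Top2b then had no peak. At a score of at least 50 none of the 9 genes had a peak, where 2.16% of all genes had one in either series. Shares at these score limits were taken over genes of any length and not by length class.

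**Figure D4:**
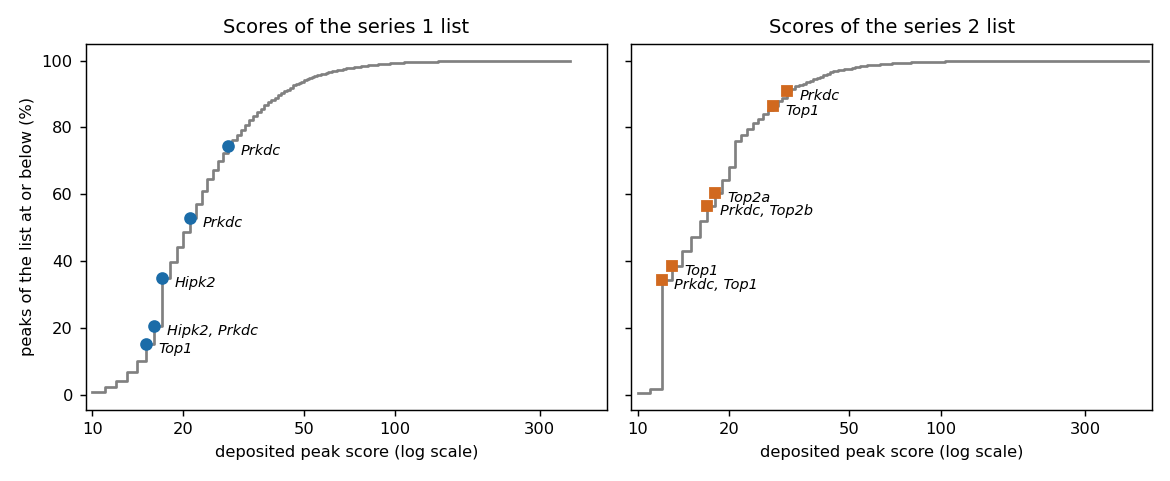
Grey steps give the percentage of each list's peaks at or below a score (log scale), for series 1 on the left and series 2 on the right, and points mark the peaks inside the 9 genes by name. All 14 points lie at scores of 31 or lower, with Prkdc the highest in both lists.

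Other genes that work with these were taken as 3 lists. The other reported Aire partners are chromatin, transcription, splicing and nuclear transport factors. Peaks were found in 20 of 35 such genes in series 1, in 16 in series 2, in 10 in both and in 26 in either, beside the shares of all genes given above. Their median length was 34.6 kb against 17.2 kb for all protein-coding genes. The median covered share of the list was 1.15% in series 1 and 0% in series 2, with 0% in each over all genes. Among the genes hit in both series, Ep300, which encodes the acetyltransferase p300, was covered over 7.24% ± 2.84 (SD, n = 2), and Prpf8, the large spliceosomal scaffold, over 6.27% ± 4.79. Baz1b, a chromatin remodelling subunit, followed with 5.15% ± 1.53 and Chd4, the NuRD helicase, with 2.70% ± 1.77. Supt16, a subunit of the histone chaperone FACT, had the highest scores, 207 in series 1 and 69 in series 2, at 2.62% ± 2.01. All 5 were covered more than any of the 9 genes in the mean of the series. Dhx15, Atf7ip, Chd6, Xpo1 and Xrcc5 were the other partners hit in both, with means of 0.708 to 2.29%. Among those hit in 1 series, Msh6 (8.47%), Mybbp1a (7.52%) and Kpnb1 (6.61%) had the highest covered shares, all in series 1. Covered shares of hit genes depend on length: the series 1 median was 4.37% in the length class of Msh6 and 0.308% in the longest class.

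The direct companions of Prkdc and Cdk9 were looked up after their values were seen. Ku, the DNA-end binding dimer that recruits the kinase encoded by Prkdc, was hit at both genes, Xrcc5 with 1 peak in each series and Xrcc6 with 1 in series 2. Cdk9 had no peak, while Ccnt1 and Ccnt2, which encode its cyclins, had 2 and 1 in series 1 and none in series 2. Hexim1, the inhibitor of P-TEFb, had none.

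Genes upstream of Aire, the receptors and NF-kappaB components that induce it and regulators of its locus were counted in the same way. In series 1 6 of 21 were hit, in series 2 also 6, in both 2 and in either 10, and their median length was 21.9 kb. These are 28.6%, 28.6%, 9.52% and 47.6% of the regulators, and over all genes the shares were 16.3%, 19.5%, 8.42% and 27.4%. Only the share hit in both was close to that of all genes. In the length class that holds their median length the shares were 15.3%, 16.8%, 4.84% and 27.2%. The 2 in both were Nfkb1, covered over 0.761% in series 1 and 1.89% in series 2, and Chuk, the kinase IKK-alpha of the noncanonical pathway, with 0.989% and 0.641%. Ltbr, the lymphotoxin beta receptor, had 10.3% of its 7.32 kb in series 1 and no peak in series 2. Hdac3 (6.30%) and Irf8 (3.76%) were likewise hit in series 1 alone. A single peak fills more of a short gene. Among genes hit in series 1, the median covered share was 9.14% in the length class of Ltbr and 3.09% in that of Hdac3 and Irf8. Tnfrsf11a, which encodes RANK, held 2 peaks of series 2 alone, and was named after its values were seen. No difference between the lists was tested.

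Among 38 relatives of the 9 genes by family, series 1 marked 17, series 2 marked 15, both marked 11 and either marked 21, with a median length of 33.5 kb, beside 16.3%, 19.5%, 8.42% and 27.4% of all genes of any length. All 5 other PI3K-related kinases, each in the longest or next longest class, where 75.8% and 54.6% of genes had a peak in either series, had a peak in either series, Atm, Atr and Mtor in both, with mean covered shares of 0.393% ± 0.241, 0.890% ± 0.356 and 0.592% ± 0.368 (SD, n = 2), beside 0.625% for Prkdc. The PARP family had 7 of 11 relatives hit where Parp1 had no peak: Parp4, Parp8 and Parp14 in both series, Parp6 over 10.1% and Parp12 over 4.98% in series 1, and Parp9 and Parp10 in series 1. These 7 lay in length classes where 11.4 to 75.8% of genes had a peak in either series, and Parp1 in one at 34.7%. Parp9, Parp10, Hipk1 and Tdp1 were named after their values were seen. Of the 7 other CDKs of transcription, Cdk8, Cdk11b and Cdk12 were hit in both series, and Cdk12, which phosphorylates polymerase during elongation, was covered over 2.85% ± 0.360 (SD, n = 2). In the class of Cdk8 and Cdk12, 19.6% of genes were hit in both series, and in that of Cdk11b 8.95%. Only Sirt3 of 6 other sirtuins had a peak, over 4.93% in series 2. The 6 lay in classes where 5.62 to 34.7% of genes had a peak in either series. Of 3 other homeodomain-interacting kinases 2 were hit, Hipk3 in both series and Hipk1 in series 1, beside Hipk2 in series 1. Of 6 other genes of topoisomerases or of repair enzymes that remove them, 2 were hit. Top3a was hit in both series with 0.817% and 1.48%, and the gene of the repair enzyme TDP1, which removes stalled topoisomerase, in series 2. The genes hit in these families lay in classes where 43.3% or 54.6% of genes had a peak in either series.

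**Figure D5:**
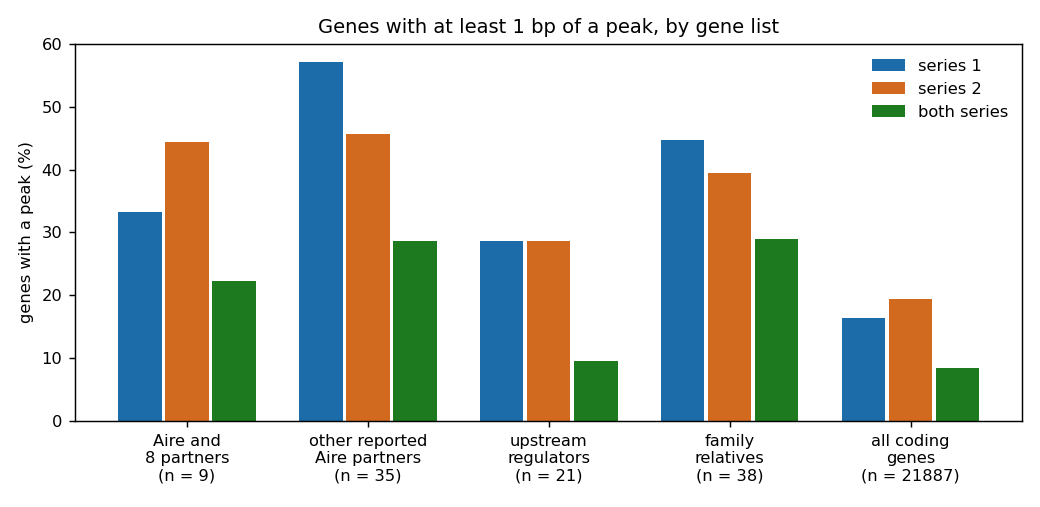
Bars give the percentage of genes touched by a peak in series 1 (blue), series 2 (orange) and both (green) for Aire with its 8 partners, 3 lists of related genes and all protein-coding genes, with the number of genes under each name. The lists differ in gene length, and the 9 genes stood at 22.2% in both series, between the upstream regulators at 9.52% and the other partners at 28.6%.

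For the 2 genes hit in both series, the protein-coding genes of like length with the nearest pair of covered shares were listed, over 2 libraries only. For Top1 they were Dipk1a, Parm1 and Mdfic, at distances of 0.0489 to 0.0899 percentage points. For Prkdc they were Ppp6r3, Hk1 and Dock9, at 0.0381 to 0.0529 percentage points. With 2188 other genes in each class, near pairs of shares are common.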

How the data were processed

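H3K36me3 ChIP of mTEClo was analysed from a list of broad peaks for each of the 2 ChIP libraries. The submitters' processing notes name Bowtie2, SAMtools, MACS2 and build mm10 without versions or settings. The peak names in the deposited files show filtered, sorted alignments, with series 1 called against 2 inputs and series 2 against 1. The authors deposited for each peak a whole-number score whose meaning is not stated. The inputs entered only through that calling. Starts were converted to count from 1.

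Gene spans and start windows came from RefSeq tables of GRCm38.p6, without exons. A gene counted as hit with at least 1 bp of a peak. For each gene the number of peaks, the covered share of the span and the highest score were computed per list with Python 3.11.15, numpy 2.4.6 and pandas 2.3.3, and the code was tested on simulated data. No test was run, since each series has 1 ChIP library and genes are not replicates. Strand came from the start windows, which were matched for all genes but Prkdc. The lists held 35 further partners (36 symbols, of which 2 name the same histone gene), 21 upstream regulators and 38 relatives, all matched.

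Members, lists and alternatives were chosen with earlier results of these data known. The genes named were the 9 members, list genes hit in both series, up to 3 more per list with the highest covered share, and the 3 genes nearest in covered share to each member hit in both; genes outside this rule are marked in the text as named after their values were seen. Alternatives were peak scores of at least 20 or 50, an overlap of 100 bp, the peak midpoint, spans extended by 5000 bp, peaks wider than 250 bp, and each library left out.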

Additional observations from a re-analysis of the deposited data

How the results depend on the processing

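An overlap of 100 bp, the peak midpoint and spans extended by 5000 bp left the peaks counted in each of the 9 genes as they were. Each peak in them was at least 219 bp wide and lay wholly inside its gene, so the first 2 settings could change no count. Where a gene had no peak in a list, the nearest was 7.30 kb or more away, beyond the 5000 bp. With scores of at least 20, genes of the 9 with a peak numbered 1 in series 1, 2 in series 2, 1 in both and 2 in either, beside 10.9%, 9.01%, 3.3% and 16.6% of all genes, and 4 of the 21 upstream regulators had one in either. With scores of at least 50 the 4 counts of the 9 genes were 0, as was that of the upstream regulators, while 1 other partner and 2 relatives were left. With peaks wider than 250 bp the 9 genes numbered 2 in series 2 and 3 in either, beside 7.37% and 18.9% of all genes, since the peaks of Top2a and Top2b are narrower. Leaving out either library, the 2 genes hit in both became 3 to 4 genes hit in the remaining list, and the 5 in either 3 to 4. Likewise the other partners in either series went from 26 to 16 to 20, the upstream regulators from 10 to 6 with either list alone and the relatives from 21 to 15 to 17. Without series 1 the peaks of Hipk2 are lost, and without series 2 those of Top2a and Top2b. Of 54 covered shares recomputed under 3 alternatives, 6 moved by more than the SD between the series: with scores of at least 20, Top1 in series 2 became 0.286% and Hipk2, Top2a and Top2b 0%, and with wider peaks Top2a and Top2b 0%. That SD is wide, and shares of Prkdc and Top1 within it changed by over 1.5 times, with the values given beside them. Shares of 0% could not fall. For a gene hit in 1 series, losing its whole share always exceeds the SD. The number of shares moved is therefore no measure of stability. No paired analysis was possible because the lists are peak calls without counts and the inputs have no list. Unknown depth limits every statement on a gene without a peak.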

Other observations

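The start windows of the 8 genes that had one differed widely in CpG content, over 250 bases before each start. The outer start of Hipk2 held 43 CpG and its inner start 1, beside a median of 10 over all windows (interquartile range 3 to 19). Sirt1 held 39 CpG and 6 matches to GGGCGG, a number reached by 1.21% of windows, and Cdk9 held 32 CpG. Aire, Top2a and Top2b held 11, 9 and 15. Sirt1 and Cdk9, with windows richer in CpG than 98.0% and 94.1% of all, had no peak in their spans, while Hipk2, whose outer window was richer than 99.1%, had 2 in series 1. Sirt1, Cdk9 and Hipk2 also differ in length, at 20.03, 7.003 and 188.8 kb. In their length classes 27.2%, 5.62% and 75.8% of genes had a peak in either series. No relation between the windows and the peaks was tested.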
